A study of Mus musculus with 6 samples.

Results

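Genes for splicing factors and RNA helicases were compared between mouse embryonic stem cells with and without HDAC1. They were taken by symbol: every gene whose platform symbol begins with Hnrnp, Srsf, Sf3, Snrp or Prpf, or with Rbm, Ddx or Dhx followed by a digit, apart from Snrpn, Ddx3x and Ddx3y. This gave 90 of the 8251 genes named by a single-gene probe set, namely 22 Ddx, 16 Hnrnp, 12 Rbm, 9 Srsf, 8 Sf3, 8 Snrp, 8 Prpf and 7 Dhx genes, of which 89 code for protein and 1 is a pseudogene. Each gene is represented by its brightest probe set, ranked by mean signal over the 6 arrays. The study hybridised biotin-labelled total RNA to 1-colour Affymetrix MG U74Av2 arrays, with 3 arrays of cells derived from wild-type embryos and 3 of cells derived from HDAC1 knockout embryos. The embryos came from a single litter and no treatment was applied. Both kinds of cell were grown in high-glucose medium with 15% fetal calf serum, either with leukaemia inhibitory factor on gelatin or on feeder cells without it, and the labels do not say which sample had which. The titles call the replicates biological without naming separate lines or cultures. The p-values here set the genotype difference against the spread among samples of a genotype, and part of that spread may be technical. If the 3 arrays of a genotype came from 1 line, genotype and line could not be told apart. The sources used here give neither the sex of the embryos nor the way the allele was disrupted.

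Splicing removes introns from precursor mRNA in the spliceosome, a machine built from small nuclear ribonucleoproteins (snRNPs), each a small nuclear RNA with a ring of Sm or, on U6 RNA, Sm-like proteins and its own specific subunits. SR proteins (the Srsf genes) and heterogeneous nuclear ribonucleoproteins (the Hnrnp genes) bind the transcript and steer the choice of splice sites, mostly with opposite effects. DEAD-box and DEAH-box proteins (the Ddx and Dhx genes) use ATP to remodel RNA and RNA-protein complexes in splicing, ribosome assembly, mRNA export, translation and decay. HDAC1 removes acetyl groups from histones as the catalytic subunit of several corepressor complexes.

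The arrays matched their labels. The mean Hdac1 signal was 2310 ± 105 (SD, n = 3) for wild type against 142 ± 48.0 (SD, n = 3) for the knockout. All 10 listed stem cell markers lay above background in both genotypes. By limma 4 of them were called higher in knockout cells and 0 lower (40%, against 4.58% of all genes in either direction). Signals are linear MAS5 intensities, and background here means a signal of at most 116.4, which is the 95th percentile over 19 spike-type controls against bacterial or yeast RNA. Differences are given as knockout minus wild type on the log2(signal + 16) scale with limma's standard error, and a gene was called at an adjusted p under 0.05 over all 12422 tested probe sets. Arrays of 1 genotype correlated at 0.944 to 0.962 across probe sets with a mean above background, and arrays of different genotypes at 0.926 to 0.938.

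Most splicing and helicase transcripts differed by less than 1.5-fold between the genotypes, and among those above background Ddx19b alone was called with a difference over 1.5-fold. Of the 90 genes, 2 were called higher (Ddx19b and Rbm22) and 1 lower (Prpf8). Over all 8251 genes 2.7% were called higher and 1.88% lower, together 4.58%, so the 3.33% called here lies near the background. The median log2 difference was -0.014 over the 90 genes and -0.037 over all genes, with 42 of the 90 above 0 and 48 below. The 3 wild-type and 3 knockout values did not overlap for 19 of the 90 genes (21.1%), 9 with knockout above and 10 with knockout below, against 22.4% of all genes. An unadjusted p under 0.05 was found for 16 of the 90 (17.8%) and for 17.1% of all genes.

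A difference over 1.5-fold was measured for 4 of the 90 genes (4.44%) and for 18.1% of all genes. The 95% confidence interval of the difference lay wholly within 1.5-fold in either direction for 61 of the 90 genes (67.8%) and for 30.6% of all genes. These intervals hold for the brightest probe set of each gene taken singly, and those of the other genes reached beyond 1.5-fold. Further probe sets of the 61 genes did not all stay within it. The interval was -0.78 to -0.16 for that of Ddx17, and -0.38 to 0.06 for that of Ddx47. The precision also differed, as the median standard error was 0.13 for the 90 genes and 0.26 for all genes. The genes that lay above background in both genotypes were 86 of the 90 and 5418 of 8251, and among these 61 of the 86 and 46.5% of the 5418 had such an interval, with median standard errors of 0.12 and 0.17. Calls among them were 2 of the 86 and 6.46% of the 5418, and differences over 1.5-fold were 2 of the 86 and 9.91% of the 5418. Outside the 86 were Rbm22, Dhx32 and Prpf39, whose mean signals were at background in both genotypes, and Ddx49, whose knockout mean was.

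**Figure D1:**
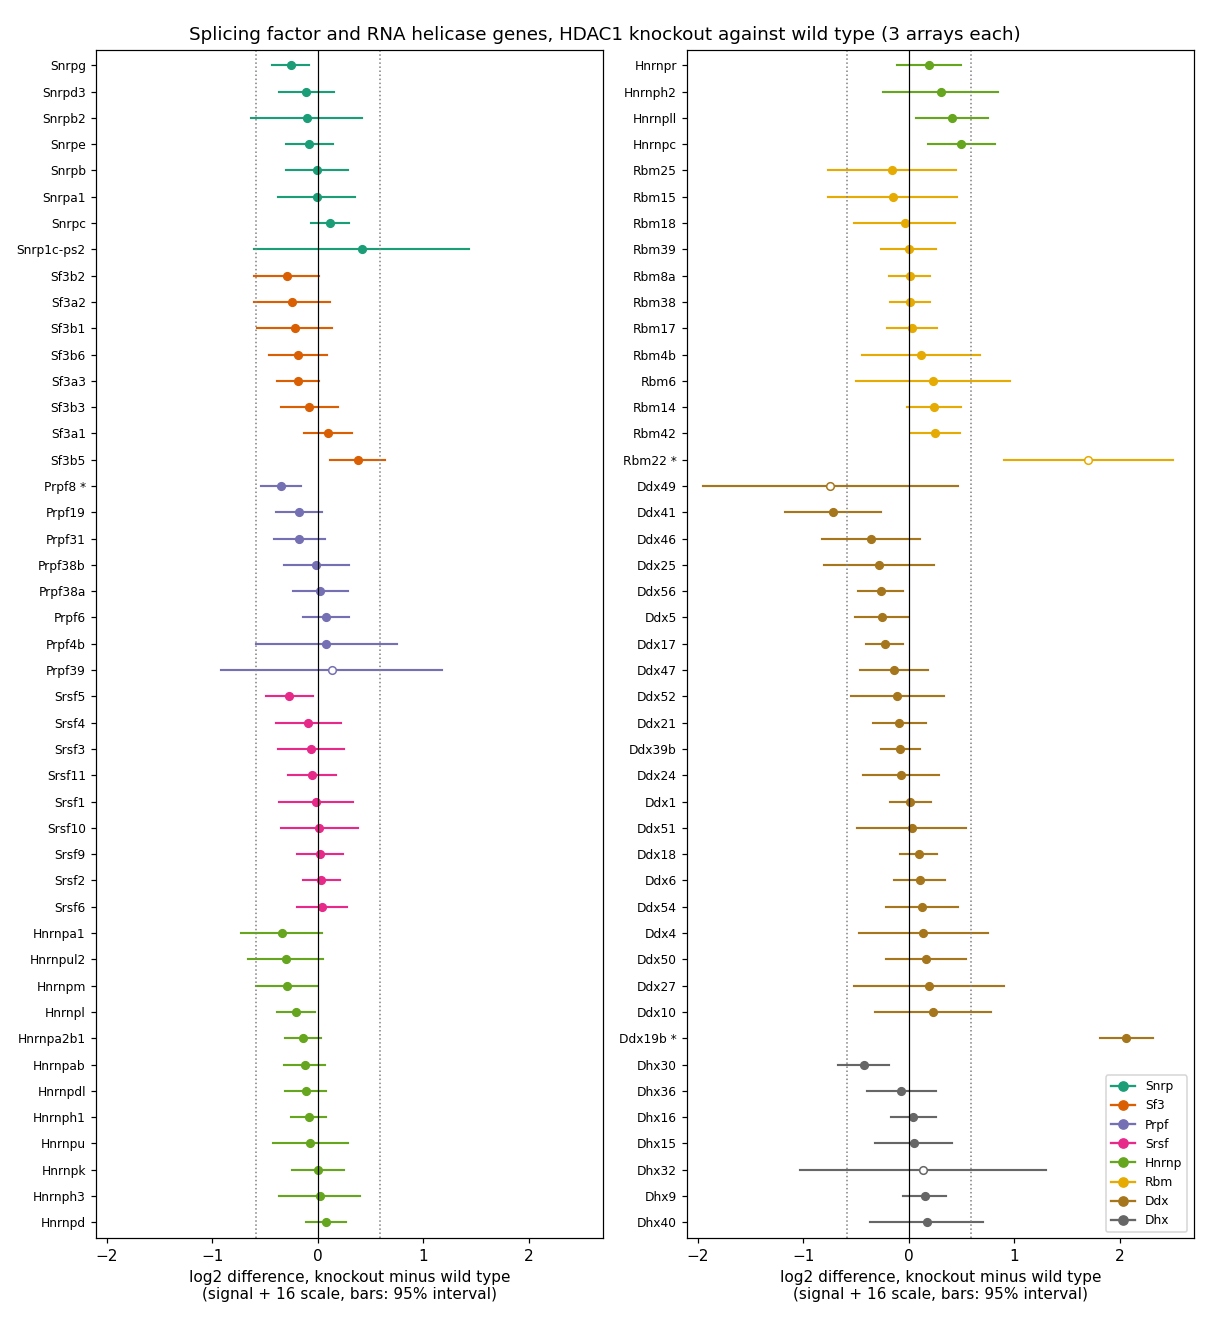
Log2 difference of each of the 90 genes (horizontal axis, knockout minus wild type, log2(signal + 16) scale), grouped by symbol family, with bars for limma's 95% interval from 3 arrays per genotype, dotted lines at 1.5-fold, open points for genes with at least 1 genotype mean at background, and stars for the 3 called genes. Ddx19b stands at 2.06, Prpf8 lies at -0.35 and Rbm22 is an open point whose place depends on the pseudocount, while 61 of the 90 bars stay between the dotted lines.

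**Figure D2:**
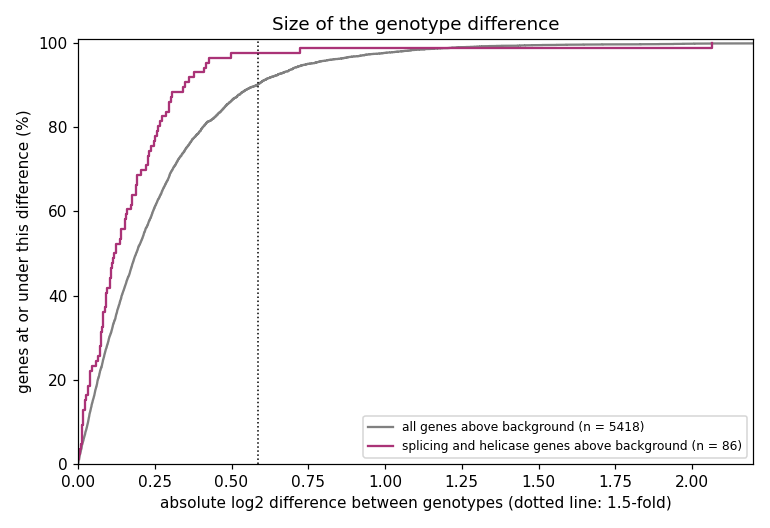
Cumulative share of genes (vertical axis, percent) with an absolute log2 difference up to the value on the horizontal axis, for 86 splicing and helicase genes and for all 5418 genes above background in both genotypes. The median absolute difference was 0.12 in the first set and 0.19 in the second, and 2 of the 86 exceeded 1.5-fold.

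The Sm proteins form the ring around the spliceosomal RNAs other than U6. Snrpg, a member of that ring, gave 6170, 5729 and 6372 in wild-type and 5389, 5048 and 4847 in knockout cells. All knockout values lay below all wild-type values, but the log2 difference of -0.26 ± 0.079 (SE) had no call (limma adjusted p = 0.126). Snrpd3, another ring protein, averaged 1812 ± 286 and 1666 ± 70.7 in the same order (SD, n = 3), with overlapping groups. The remaining ring genes Snrpb and Snrpe had log2 differences of -0.012 and -0.082 and were likewise without a call. Among specific subunits, Snrpc of the U1 snRNP gave 1985, 1952 and 1777 in wild-type and 2017, 2118 and 2051 in knockout cells, separated but not called (log2 difference 0.11 ± 0.083, limma adjusted p = 0.591). Snrpa1 and Snrpb2 of the U2 snRNP had log2 differences of -0.012 and -0.11. The pseudogene Snrp1c-ps2 ranged from 276 on a wild-type array to 1238 on a knockout array, and its interval of -0.60 to 1.44 was the widest of the 8 genes of this prefix. Its probe set is of a class that Affymetrix marks as shared within a sequence family, so it may measure related transcripts. The brightest probe sets of Snrpe, Sf3a2, Sf3b2, Rbm14 and Srsf3 are of the same class.

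The SF3a and SF3b subunits hold the U2 snRNP at the branch point of the intron. None of the 8 was called by limma (4.58% of all genes were), and 1 had an unadjusted p under 0.05 (12.5%, against 17.1% of all genes). Of the 8 differences 6 were below 0, with a family median of -0.19. Sf3b5, a small SF3b subunit, gave 1370, 1775 and 1746 in wild-type and 2308, 1914 and 2127 in knockout cells. It was the gene of this prefix with every knockout array above every wild-type array, and the log2 difference was 0.38 ± 0.12 (limma adjusted p = 0.13). Sf3a3, an SF3a subunit, gave 1902, 2176 and 1972 in wild-type and 1784, 1675 and 1841 in knockout cells, again separated, in the opposite direction and without a call (log2 difference -0.19 ± 0.088, limma adjusted p = 0.348). Sf3b2 overlapped by a small margin, with 954, 1245 and 887 against 764, 823 and 897. For Sf3b1, the subunit that clamps the branch point, the brightest probe set and a second one had log2 differences of -0.22 and -0.21, neither called.

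Prpf8, the large protein that frames the catalytic centre of the spliceosome as part of the U5 snRNP, was lower in knockout cells. Its signals were 3529, 3679 and 3178 in wild-type and 2812, 2579 and 2737 in knockout cells. The groups did not overlap, and the fall was 1.27-fold (log2 difference -0.35 ± 0.084, 95% interval -0.54 to -0.16, limma adjusted p = 0.0478). The interval lay within 1.5-fold, and the call was lost with 5 of the 6 arrays left out (all but wild type replicate 3), with adjusted p up to 0.191, and under 6 other alternatives, among them the replicate block (adjusted p = 0.124) and median centring (adjusted p = 0.206). The promoter window of Prpf8 is shown because Prpf8 and Ddx19b are the called genes of the 90 that lie above background. It runs from 250 bases before to 50 bases after the annotated start, 5′ to 3′ on the gene's strand, from RefSeq on GRCm38.p6, with capitals marking any of 7 motifs searched (given with their shares after the Ddx19b windows).
Prpf8, chr11:75486527-75486826, plus strand: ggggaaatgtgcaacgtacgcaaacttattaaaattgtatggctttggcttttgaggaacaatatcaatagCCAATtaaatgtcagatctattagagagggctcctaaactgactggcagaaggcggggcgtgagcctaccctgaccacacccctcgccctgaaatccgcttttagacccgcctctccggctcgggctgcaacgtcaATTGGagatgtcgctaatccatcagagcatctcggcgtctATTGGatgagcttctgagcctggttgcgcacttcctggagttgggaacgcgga

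The other Prpf genes had no call. Prpf19, the ubiquitin ligase that gives its name to an activating complex of the spliceosome, averaged 2959 ± 212 and then 2621 ± 285 without HDAC1 (SD, n = 3). Prpf31, a protein of the complex of U4, U6 and U5 snRNPs, had 1212 ± 104 and 1072 ± 97.4. Both lay lower on average with overlapping arrays, at log2 differences of -0.18 and -0.18. Prpf6, which bridges the snRNPs of the same complex, gave 2152, 1752 and 2145 in wild-type and 2137, 2056 and 2154 in knockout cells, a difference of 0.075 ± 0.098 whose interval ran from -0.14 to 0.29. Prpf38a, Prpf38b and the kinase gene Prpf4b had log2 differences of 0.023, -0.015 and 0.079. Prpf39, a U1-associated factor, stayed at or under background on all 6 arrays, between 29.9 and 101.6.

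The SR proteins were the family with the least spread. In their brightest probe sets, all 9 Srsf genes had a 95% interval within 1.5-fold (30.6% of all genes did). By limma none was called and 1 had an unadjusted p under 0.05 (4.58% and 17.1% of all genes). In none of these probe sets did the genotypes separate (22.4% of all genes did). Srsf5 was furthest from 0, with 4004, 3422 and 4290 in wild-type and 3517, 3014 and 3135 in knockout cells, a log2 difference of -0.27 ± 0.10 (limma adjusted p = 0.217). One knockout array exceeded the lowest wild-type array. Srsf4 and Srsf11 had differences of -0.090 and -0.058, and the other 6 (Srsf1, Srsf2, Srsf3, Srsf6, Srsf9 and Srsf10) lay between -0.065 and 0.039. Srsf2, for example, gave 14013, 14359 and 15584 in wild-type and 14918, 15311 and 14684 in knockout cells. Srsf1, an SR protein with many splicing targets, had 3 more probe sets with log2 differences of -0.30, -0.44 and -0.96, none called, and -0.015 in its brightest. The probe set at -0.96 separated the genotypes, with a knockout mean at background.

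Among the 16 Hnrnp genes none was called by limma (4.58% of all genes were), and the differences ran from -0.34 to 0.50. An unadjusted p under 0.05 was found for 4 of the 16 (25%, against 17.1% of all genes). Hnrnpc, which binds uridine tracts and masks cryptic splice sites, was furthest above 0. It gave 614, 642 and 503 in wild-type and 861, 727 and 914 in knockout cells, with no overlap (log2 difference 0.50 ± 0.14, limma adjusted p = 0.0957). Hnrnpll, known for control of Cd45 splicing in lymphocytes, gave 1174, 770 and 1170 in wild-type and 1429, 1293 and 1361 in knockout cells. These groups were separated too, with wild type replicate 2 well below the rest (log2 difference 0.41 ± 0.15, limma adjusted p = 0.226). Its paralog Hnrnpl went the other way, with 2305, 2179 and 2253 in wild-type and 1979, 1832 and 2029 in knockout cells (log2 difference -0.21 ± 0.081, limma adjusted p = 0.251). The difference between these paralogs was not tested.

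Hnrnph2 was the single X-linked gene of the 90. It gave 514, 398 and 259 in wild-type and 401, 446 and 573 in knockout cells, with overlapping groups and a log2 difference of 0.30 ± 0.25 (limma adjusted p = 0.641). The median difference of the 259 X-linked genes was 0.23, and that of 7969 autosomal genes was -0.041. The part of the sex chromosomes in the value of Hnrnph2 was not tested, as no label gives the sex of the embryos. Its autosomal relatives Hnrnph1 and Hnrnph3 had differences of -0.089 and 0.017. Hnrnpk, an abundant poly(C)-binding protein, had 1889 ± 237 and 1888 ± 163 (SD, n = 3) and an interval of -0.24 to 0.25. The remaining Hnrnp genes (Hnrnpa1, Hnrnpa2b1, Hnrnpab, Hnrnpd, Hnrnpdl, Hnrnpm, Hnrnpr, Hnrnpu and Hnrnpul2) lay between -0.34 and 0.19. In Hnrnpm and Hnrnpab every knockout array lay below every wild-type array, without a call (log2 differences -0.30 and -0.12, limma adjusted p = 0.318 and 0.585). Within Hnrnpm, knockout replicate 1 with 2245 stood apart from the other knockout arrays at 3104 and 3380.

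Of the 12 Rbm genes, Rbm22, a spliceosomal protein near the active site, was called higher with all signals under background. It gave 7.20, 3.30 and 7.30 in wild-type and 66.3, 67.8 and 36.3 in knockout cells, so no fold is given (limma adjusted p = 0.0265). Its log2 difference was set largely by the pseudocount, at 1.70 with 16, 3.07 with 1 and 0.78 with 64. The call was lost with 5 of the 6 arrays left out (all but HDAC1 knockout replicate 3, adjusted p up to 0.101) and with the replicate block (adjusted p = 0.0678). Rbm42 gave 1330, 1652 and 1369 in wild-type and 1788, 1775 and 1604 in knockout cells, overlapping by a small margin (log2 difference 0.25 ± 0.11, limma adjusted p = 0.285). Rbm14, a coactivator and paraspeckle protein, gave 706, 685 and 727 in wild-type and 824, 767 and 921 in knockout cells. These groups did not overlap, and the difference of 0.24 ± 0.12 had no call (limma adjusted p = 0.376). Rbm6 was variable in both genotypes, with 156, 274 and 163 against 302, 162 and 239. The other 8 (Rbm15, Rbm17, Rbm18, Rbm25, Rbm38, Rbm39, Rbm4b and the exon junction complex gene Rbm8a) had differences between -0.16 and 0.11, none called.

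**Figure D3:**
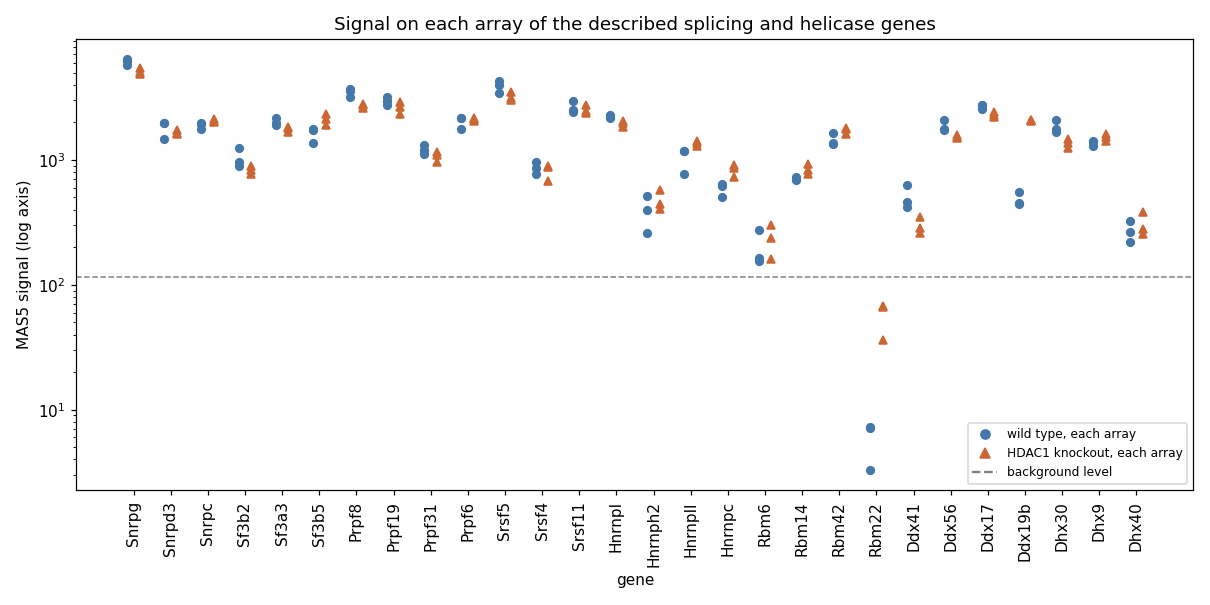
Signal on each of the 6 arrays (vertical log axis, MAS5 signal) for the 28 splicing and helicase genes that were called, had the smallest p of their family or lie on the X chromosome, with circles for wild type, triangles for HDAC1 knockout and a dashed line at the background level of 116.4. The knockout triangles of Ddx19b lie together far above the wild-type circles, and all 6 points of Rbm22 lie under the dashed line.

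Ddx19b encodes a DEAD-box helicase of the family that releases mRNA from export factors at the nuclear pore. It gave 446, 454 and 557 in wild-type and 2090, 2067 and 2058 in knockout cells. The knockout arrays lay within a narrow range far above all wild-type arrays, and the rise was 4.18-fold (486 ± 61.9 to 2072 ± 16.7, SD, n = 3, log2 difference 2.06 ± 0.11, 95% interval 1.82 to 2.31, limma adjusted p = 3.89e-06). The call held in all 19 other fits, with adjusted p from 1.53e-06 to 0.00894, and the log2 difference with 1 array left out ran from 2.01 to 2.16. Ddx19b had 1 probe set, so no second measurement of the same gene exists here.

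Ddx19b lies on chromosome 8, and none of its measured neighbours was called. Its adjacent paralog Ddx19a has no single-gene probe set in the annotation used here, and both proteins are known to be closely similar, so whether the probes also measured Ddx19a was not tested. Of the 6 protein-coding genes on either side, 4 were measured, with log2 differences from -0.080 to 0.13 and the smallest limma adjusted p at 0.54. One of the 4, St3gal2, was at background in both genotypes. The tRNA synthetase gene Aars, which overlaps Ddx19b in the RefSeq annotation, averaged 1525 and 1666 (log2 difference 0.13). Sf3b3, an SF3b subunit 5 genes away, had 2151 and 2026. The promoter windows of Ddx19b are shown because this is the gene with the large change, and RefSeq gives it 2 start sites. Capitals again mark the motifs searched.
Ddx19b, chr8:111031702-111032001, minus strand: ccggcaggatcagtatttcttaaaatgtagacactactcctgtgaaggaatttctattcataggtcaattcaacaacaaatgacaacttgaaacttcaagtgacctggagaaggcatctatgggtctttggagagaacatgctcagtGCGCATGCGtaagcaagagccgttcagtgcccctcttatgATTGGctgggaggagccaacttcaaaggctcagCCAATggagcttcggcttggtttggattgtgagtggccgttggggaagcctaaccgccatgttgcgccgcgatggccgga
Ddx19b, chr8:111027721-111028020, minus strand: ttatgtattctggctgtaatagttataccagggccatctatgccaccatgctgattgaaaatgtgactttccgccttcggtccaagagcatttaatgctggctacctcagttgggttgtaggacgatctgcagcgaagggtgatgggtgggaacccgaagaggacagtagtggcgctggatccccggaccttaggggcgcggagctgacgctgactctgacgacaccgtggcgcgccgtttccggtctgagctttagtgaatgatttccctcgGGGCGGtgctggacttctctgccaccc

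The motifs were searched on both strands in 103 promoter windows of 82 of the 90 genes and, as the background, in all 32851 windows of the same RefSeq table, 21262 of them from protein-coding genes. The ETS core CGGAAG was found in 53 of the 103 (51.5%), in 16.9% of all windows and in 21.1% of those of protein-coding genes. The GC box GGGCGG was found in 62.1%, 35.7% and 46.2%, and the CCAAT box in 49.5%, 37.4% and 38.2%. TATAAA was found in 9.71%, 13.6% and 12.6%, the cyclic AMP response element TGACGTCA in 4.85%, 1.79% and 2.23%, CTCGCGAG in 5.83%, 0.919% and 1.24%, and GCGCATGCG, part of the motif known for NRF1, in 2.91%, 1.75% and 2.35%. No motif contains another of these, though a GGGCGG and a CGGAAG can share letters. The upstream window of Ddx19b holds 2 CCAAT boxes and 1 GCGCATGCG, its second window 1 GGGCGG, and the window of Prpf8 3 CCAAT boxes, and CGGAAG is in none of these 3 windows. The observed to expected ratio of CpG was 0.602 and 0.783 in the Ddx19b windows and 0.81 in that of Prpf8, with a median of 0.92 over the 103 and 0.567 over protein-coding genes. The median GC content was 60.3% over the 103, 52.7% over all windows and 56.3% over those of protein-coding genes. The background windows were not matched for GC or CpG, and the part of base composition in the motif shares was not tested. A match describes letters and not a bound site.

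Among the other DEAD-box genes none was called. Ddx41, a helicase of the late spliceosome, gave 421, 462 and 632 in wild-type and 259, 348 and 286 in knockout cells. The groups did not overlap, and the log2 difference of -0.72 ± 0.21 missed the threshold (limma adjusted p = 0.0947). The paralogs Ddx5 and Ddx17, coregulators of transcription and splicing, lay lower on average. Ddx17 gave 2772, 2575 and 2757 in wild-type and 2193, 2306 and 2407 in knockout cells, and a second probe set gave 798, 974 and 704 against 564, 586 and 611. Both probe sets separated the genotypes, at log2 differences of -0.23 and -0.47 (limma adjusted p = 0.182 and 0.115). Ddx5 overlapped, with 2012, 2206 and 1798 against 1486, 1650 and 1891. Ddx56, which works in ribosome assembly in the nucleolus, gave 1759, 1738 and 2077 in wild-type and 1525, 1502 and 1580 in knockout cells, separated but not called (log2 difference -0.27 ± 0.095, limma adjusted p = 0.196).

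The remaining DEAD-box genes were close to 0 or imprecise. Ddx39b, a splicing and export helicase, had 5856 ± 358 and 5535 ± 365 (SD, n = 3) and an interval of -0.27 to 0.10. Ddx6, a helicase of processing bodies, and Ddx1 had differences of 0.10 and 0.014, and Ddx46, the helicase that readies the branch point complex, had -0.36 with an interval of -0.83 to 0.11. The nucleolar helicase genes Ddx10, Ddx18, Ddx21, Ddx47, Ddx51, Ddx52, Ddx54 and Ddx56 ran from -0.27 to 0.23. Ddx49, a further nucleolar helicase, scattered around background, with 137, 198 and 63.7 in wild-type and 138, 37.3 and 51.7 in knockout cells. The germ cell helicases Ddx4 and Ddx25 lay above background in both genotypes, at 202 ± 16.9 and 228 ± 59.7 for Ddx4 and 296 ± 53.8 and 239 ± 29.7 for Ddx25 (SD, n = 3), with overlapping groups. Ddx24, Ddx27 and Ddx50 had differences of -0.074, 0.19 and 0.16, the second with 1 wild-type array at 168 and the others at 462 and 398. For each, a further probe set above background had the opposite sign (0.064, -0.14 and -0.23, in the same order), so their directions are not settled.

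None of the 7 DEAH-box genes was called by limma (4.58% of all genes were). An unadjusted p under 0.05 (17.1% of all genes) was found for 1 of them. This was Dhx30, which acts on mitochondrial ribosome assembly. It gave 2074, 1680 and 1761 in wild-type and 1483, 1367 and 1234 in knockout cells, with no overlap and a log2 difference of -0.43 ± 0.11 (limma adjusted p = 0.0624). Dhx30 passed the threshold in 4 of the 19 other fits, with adjusted p between 0.039 and 0.537 over all of them. Dhx9, a nuclear helicase that unwinds double-stranded RNA, gave 1408, 1300 and 1392 in wild-type and 1538, 1414 and 1616 in knockout cells. These groups were separated by a narrow margin (log2 difference 0.15 ± 0.092, limma adjusted p = 0.495). Dhx40 had a difference of 0.17 ± 0.24, and Dhx15 and Dhx16, which act at the release and activation of the spliceosome, had 0.045 and 0.040. Dhx36, which resolves G-quadruplexes, had -0.073, and Dhx32 crossed the background level, between 31.0 and 132.7 over the 6 arrays.

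**Figure D4:**
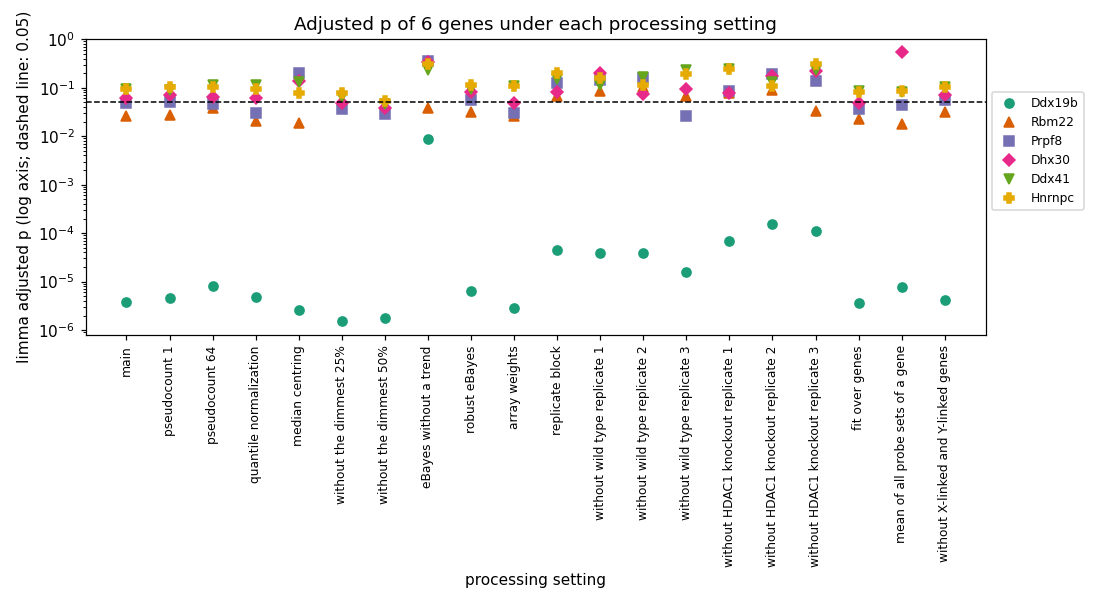
Adjusted p by limma (vertical log axis, dashed line at 0.05) of 6 genes under the reported fit and each of the 19 other fits (horizontal axis). Ddx19b stays under 0.01 throughout, while Prpf8 and Rbm22 cross the dashed line in 11 and 6 of the other fits in which they were tested. Dhx30 and Ddx41 lie mostly above it, and Hnrnpc always.

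Several genes had more than 1 probe set. The 28 such genes had 34 further probe sets, none called by limma (3.88% of all probe sets were), with 4 at an unadjusted p under 0.05 (15.4% of all probe sets). The sign was that of the brightest probe set for 22 of the 34, and for 14 of the 22 that lay above background in both genotypes. None of the 3 called genes had a second probe set. Besides Ddx17, both probe sets of Hnrnpul2 (-0.31 and -0.31), of Hnrnpa2b1 (-0.14 and -0.35) and of Ddx47 (-0.14 and -0.16) had differences below 0. Opposite signs above background were found for Sf3a2 (-0.25 and 0.035), Ddx1 (0.014 and -0.24) and Ddx18 (0.092 and -0.018). The same held for Ddx24, Ddx27, Ddx50, Srsf3 and Srsf4.

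**Figure D5:**
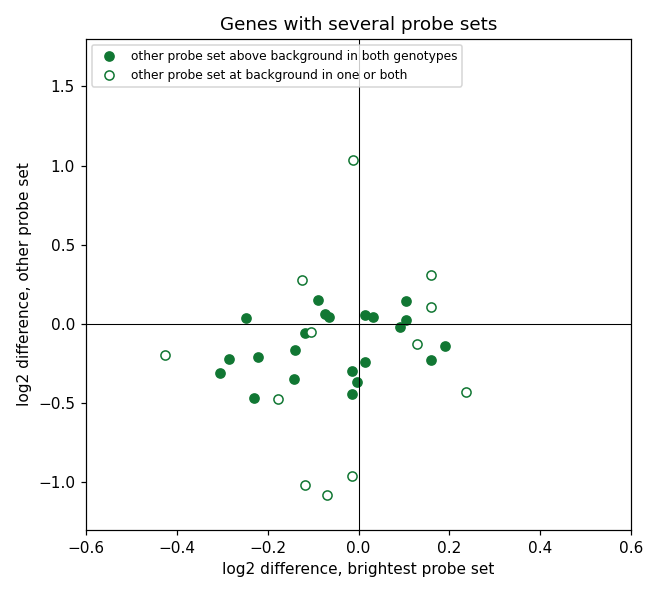
Log2 difference of each of 34 further probe sets (vertical axis) against that of the brightest probe set of the same gene (horizontal axis), filled where the further probe set lay above background in both genotypes and open otherwise. The sign matched for 22 of the 34, and the differences furthest from 0 belong to open points.

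Other genes of splicing and RNA unwinding were taken from lists of symbols outside the prefixes above. Of 119 listed splicing genes 84 were measured, and 1 was called higher and 2 lower (3.57%, against 4.58% of all genes), with a median log2 difference of -0.040. The differences ran from -1.21 for Ptbp2 to 0.62 for Ptbp3, both separated but not called (limma adjusted p = 0.0618 and 0.157). A difference over 1.5-fold was measured for 6 of the 84 (7.14%, against 18.1% of all genes). The genotypes did not overlap for 22 of the 84 (26.2%, against 22.4% of all genes). Snrnp40, a U5 snRNP subunit, gave 1218, 1318 and 1163 in wild-type and 1740, 1566 and 1712 in knockout cells, and rose 1.35-fold (limma adjusted p = 0.0282). Lsm7, a protein of the ring that binds U6 RNA and of the cytoplasmic decay ring, gave 2938, 3048 and 2650 against 2107, 1886 and 2305, and fell 1.37-fold (limma adjusted p = 0.0278). Rbmxl1, a copy of the X-linked splicing gene Rbmx that may share probes with it, gave 2046, 2130 and 2083 against 1704, 1658 and 1428, and fell 1.31-fold (limma adjusted p = 0.0462). The groups of these 3 called genes were separated. Rbmx itself averaged 194 in wild-type and 232 in knockout cells, with overlapping groups and no call (log2 difference 0.27, limma adjusted p = 0.753). With 1 array left out, Rbmxl1 was never called (adjusted p from 0.0655 to 0.166). Snrnp40 was called only without wild type replicate 2 (adjusted p up to 0.117 otherwise), and Lsm7 only without replicate 3 of either genotype (up to 0.127 otherwise).

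Of 24 listed RNA helicases outside the Ddx and Dhx names 9 were measured. None was called by limma (4.58% of all genes were), and the median was -0.0013. An unadjusted p under 0.05 was found for 3 of the 9 (33.3%, against 17.1% of all genes). Aqr, a helicase that binds introns in the spliceosome, gave 1715, 1788 and 1627 in wild-type and 1312, 1434 and 1302 in knockout cells. Mov10, a helicase linked to silencing of retroelements, gave 464, 487 and 493 against 701, 691 and 622. Both were separated in opposite directions and missed the threshold (log2 differences -0.34 and 0.46, limma adjusted p = 0.07 and 0.0845). Znfx1 had a difference of -1.04 with a knockout mean at background (limma adjusted p = 0.227), and the translation helicase genes Eif4a1 and Eif4a2 had 0.031 and 0.24.

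The arrays of the 2 genotypes also differed in other RNA. Of 26 feeder fibroblast markers 5 were called lower and 0 higher by limma (19.2%, against 4.58% of all genes in either direction), with a median of -0.37. An unadjusted p under 0.05 was found for 10 of the 26 (38.5%, against 17.1% of all genes). Their summed signal was 22068 to 22388 in wild-type and 16515 to 17079 in knockout arrays, and 5 and 8 of the 26 had a mean at background. The beta-actin probe sets, 3' over 5', gave ratios of 1.15 to 1.21 on wild-type and 1.04 to 1.09 on knockout arrays, and those of Gapdh 0.797 to 0.809 and 0.769 to 0.804 (exact two-sided permutation p = 0.1, the smallest possible, and 0.4). The part of fibroblast RNA and of RNA quality in the calls of Ddx19b, Prpf8 and Rbm22 was not tested. In such bulk RNA, fewer cells of a type and less RNA per cell cannot be told apart.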

How the data were processed

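Transcript levels were measured on 1 Affymetrix MG U74Av2 array per sample, 3 wild-type and 3 HDAC1 knockout. The authors deposited a linear intensity for each probe set, computed with MAS5 according to the submitters' processing notes. Its version and settings are not given. Means trimmed by 2% at each end were 500.3 throughout, so these intensities were used as deposited and hide any change common to all transcripts.

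Of 12488 probe sets 66 were controls and 12422 were tested. The platform annotation gave 10833 of these 1 symbol, 396 several and 1193 none, and 10817 of the first kind were found in RefSeq (GRCm38.p6). Probe sets with several symbols name no gene here. The fit was limma's (3.58.1, R 4.3.3) on log2(signal + 16), using lmFit and eBayes with an intensity trend, with no covariates and Benjamini-Hochberg adjustment over 12422 probe sets. The added 16 understates changes of dim genes. The number of arrays limits the precision. The genes and lists were chosen with earlier results of these data known.

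Named by rule were all called genes, the 3 uncalled genes with the smallest p of each prefix, X-linked genes, and the called genes and 3 smallest p of each list, with other genes chosen after their values were seen. Alternatives were a pseudocount of 1 or 64, median centring or quantile normalization, filters on dim probe sets, other variance models, weighted arrays, blocking on replicate number, each array left out, fits over genes and other thresholds. Leaving out genes of the X and Y chromosomes was chosen after seeing the data. In simulated data from this comparison with 12422 probe sets, limma called 26%, 62% and 90% of 50 probe sets above background changed 1.5-fold, 2-fold and 4-fold. The changed probe sets were drawn from all those above background and not from the 90 genes. They were fewer than the 482 probe sets called in the data, so the shares need not hold for the 90 genes.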

Additional observations from a re-analysis of the deposited data

How the results depend on the processing

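Ddx19b was called in all 19 other fits, whereas the calls of Rbm22 and Prpf8 depended on the setting. The number of genes called higher was 1 in place of 2 without the dimmest 25% or 50% of probe sets, where Rbm22 was not tested, with the replicate block and at an adjusted p under 0.01, 3 at an adjusted p under 0.1 (with Hnrnpc), and 1 to 2 with 1 array left out. The number called lower was 0 in place of 1 with a pseudocount of 1, median centring, eBayes without a trend, robust eBayes, the replicate block, without X-linked and Y-linked genes and at an adjusted p under 0.01. It was 2 with quantile normalization, array weights, the fit over genes and without the dimmest 25%, and 3 without the dimmest 50% and at an adjusted p under 0.1, and 0 to 1 with 1 array left out. The median log2 difference was 0.064 with median centring and -0.062 to -0.0091 with 1 array left out. Median centring also moved the share of higher calls among all called probe sets from 57.9% to 72.7%. Of the other splicing genes, 3 called in the reported fit, the count was 1 with median centring, 5 without the dimmest 50%, 6 at an adjusted p under 0.1, 0 with eBayes without a trend, the replicate block and an adjusted p under 0.01, and 0 to 2 with 1 array left out. Of the other RNA helicases, 0 in the reported fit, it was 1 with median centring and 2 without the dimmest 50% and at an adjusted p under 0.1, and 0 with any array left out. Differences of uncalled genes changed sign for Srsf11 (0.019 with median centring, -0.12 to 0.033 with 1 array left out), Prpf6 (-0.022 to 0.12 with 1 array left out), Srsf4 (-0.16 to 0.038 with 1 array left out, 0.031 with the mean of all probe sets) and Rbm14 (-0.10 with that mean), and the sign of 39 of the 87 uncalled splicing and helicase genes changed in at least 1 fit. Same-numbered arrays did not deviate together across probe sets with a mean above background (correlations of -0.06, -0.02 and -0.10). A pairing that touched few genes would not show in such correlations. Whether the replicate numbers pair the samples is therefore not settled, and the labels do not say. Apart from the stated constructions, the cause of these changes was not tested.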

Other observations

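Probe sets annotated to several genes, at least 1 of them with one of the prefixes above, were left out of the comparison because they name no single gene. There were 10 of them, 9 above background in both genotypes. None was called by limma (3.88% of all probe sets were), and 2 had an unadjusted p under 0.05 (15.4% of all probe sets). Their log2 differences ran from -0.83 to 0.32 with a median of -0.015.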
